A study of Rattus norvegicus with 6 samples.

Results

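The collagen chains are the genes whose symbol has the form Col, a number, the letter a and a number, with a normalised value of at least 1 in at least 3 of the 6 libraries. Of 43 such symbols in the table of 19828 entries, 41 passed, out of 15386 genes that passed the same filter. The chains were measured by bulk RNA-seq in total lung of rats of the Sprague-Dawley strain, with 3 libraries of wild-type (WT) lungs and 3 of lungs labelled as Ahr knockouts (Ahr-KO). Both groups carried the same treatment, Sugen-Hypoxia (SuHx), an inhibitor of VEGF receptors combined with low oxygen that produces pulmonary arterial hypertension in rats, and both were labelled day 56. Animals without SuHx are not analysed here, and the sources used here do not give the kind of Ahr edit, the age or the sex of the rats. Ahr encodes the aryl hydrocarbon receptor, a transcription factor switched on by small ligands. Each comparison below asks how collagen expression in the SuHx lung differed between the genotypes.

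Collagens are proteins of the extracellular matrix whose chains wind into triple helices, and each chain has its own gene. Fibrillar collagens form the tensile fibrils of the vessel wall, airway wall and septa, FACIT collagens (fibril-associated collagens with interrupted triple helices) decorate those fibrils, and type IV collagens form the sheet of every basement membrane. Beaded collagens form microfibrils around cells, network collagens form lattices, and transmembrane collagens sit in the cell surface. In the lung, type IV collagen lies between the alveolar epithelium and the capillary, and fibrillar collagen builds up when vessels or septa are remodelled.

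Values are normalised, estimated reads per gene. Log2 differences are Ahr-KO minus WT on log2(value + 1), ± SE, and a fold is 2 raised to the size of that difference. Tests are limma-trend fitted on all 15386 genes with Benjamini-Hochberg adjusted p, and a chain is said to have risen or fallen where the adjusted p was under 0.05. Libraries are numbered 0, 1 and 2 in each group. Means are given ± SD over n = 3 libraries. The libraries held about 12.9 to 23.6 M reads, so that 1 read was worth a value of 0.806 to 1.40 and 2 libraries, number 2 of each group, were the shallowest. Ahr itself was read at 2940.0, 2860.4 and 3395 in WT and at 2399, 3923 and 3575 in Ahr-KO. Those values overlapped and did not pass (log2 0.079 ± 0.18, adjusted p = 0.81), so the level of Ahr RNA did not separate the labels. Its target Cyp1a1 did, at 27085, 23512 and 37694 against 10.5, 0.826 and 1.36. The lung epithelial genes fixed to check the tissue (Sftpc, Sftpb, Sftpa1, Ager, Scgb1a1, Cldn18) summed to 718123 to 729959 in WT and 865265 to 928562 in Ahr-KO. Striated muscle genes summed to 5878 in WT library 2 and to 816 to 2135 in the other 5 libraries.

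Of the 41 tested chains, 14 differed between the genotypes, 9 lower and 5 higher in Ahr-KO, and 27 did not pass, 7 of them with an unadjusted p under 0.05. The chains that fell were the fibrillar chains Col1a1, Col3a1, Col5a3 and Col11a1, the FACIT chains Col14a1 and Col19a1, and Col8a2, Col18a1 and Col6a6. The chains that rose were the type IV chains Col4a3, Col4a4 and Col4a6, the beaded chain Col6a4 and the FACIT chain Col20a1. Among all tested genes, 10.8% differed, 6.26% lower and 4.50% higher, against 34.1% of the chains. After every library was scaled to 1 common total, the split over all genes was 1314 lower and 448 higher, in place of 963 and 692, the median of all genes was -0.082, and 11 chains were lower and 5 higher. The number of all genes called, 1655, was 705 without WT library 0, 871 without WT library 1, 529 without Ahr-KO library 1 and 407 without Ahr-KO library 2. In those 4 fits 6, 7, 6 and 7 chains were lower and 4, 5, 2 and 2 higher. The 3 Ahr-KO values all lay below the WT values for 11 chains and above them for 8, where the shares over all genes were 17.4% and 17.0% (34.3% together). The median log2 difference was -0.025 over the chains and 0.0085 over all tested genes. Class medians were -0.79 for the 10 fibrillar chains, 0.35 for the 9 FACIT chains, 0.65 for the 6 type IV chains and -0.020 for the 7 beaded chains. In bulk tissue, fewer cells of a type and less RNA per cell cannot be told apart.

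**Figure D1:**
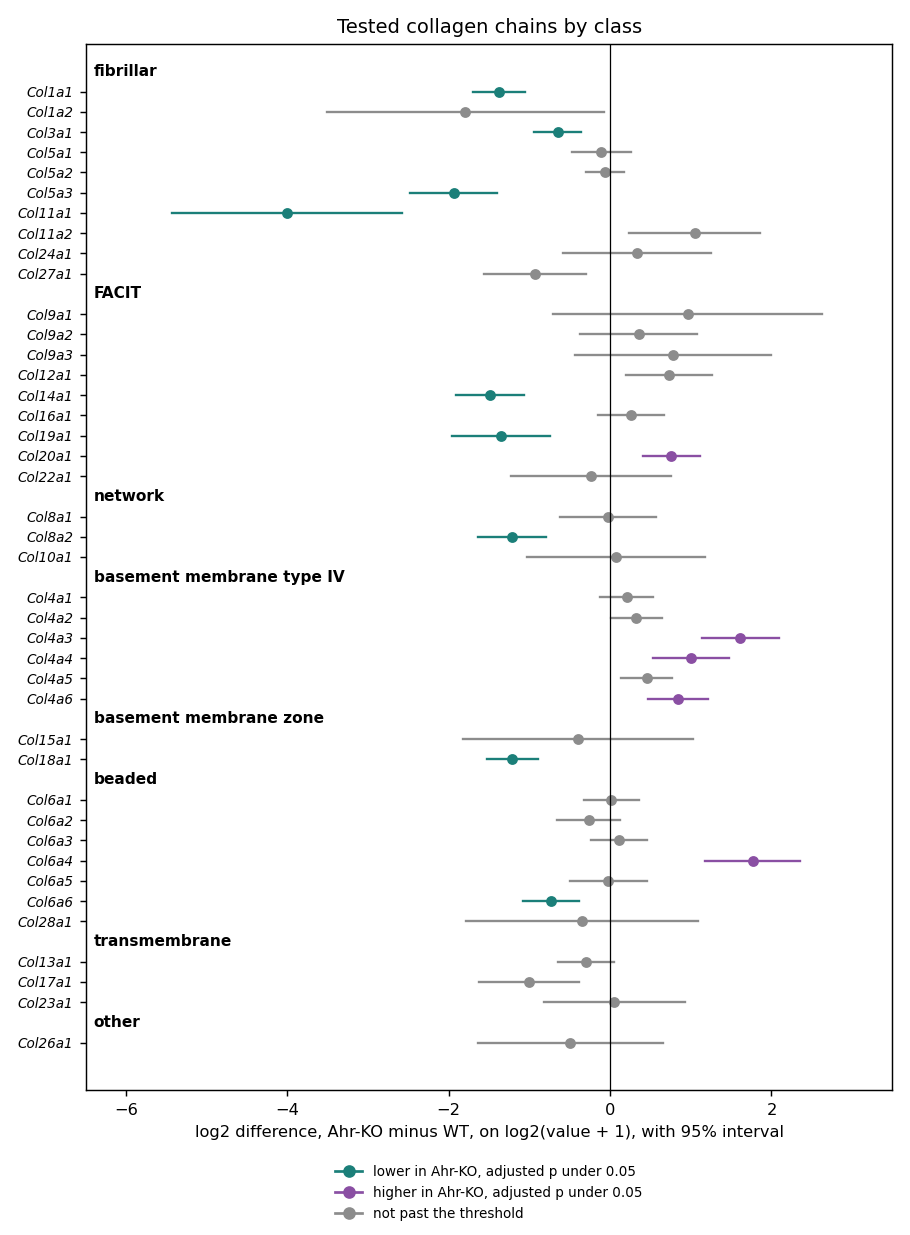
Log2 difference of each of the 41 tested chains (point) with its 95% interval (line), grouped by class, with 0 marking equal levels. The 4 fibrillar chains that fell lie left of 0, the 3 type IV chains that rose lie right of 0, and the type IV class has no point below 0.

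The type IV genes stand in the genome as head-to-head pairs, each with the stretch between its starts in common. Promoter sequences are printed for Col4a1 with Col4a2 and for the type IV chains that rose (Col4a3, Col4a4 and Col4a6). They are also printed for Col5a3 and Col18a1, which fell in each alternative fit. Col8a2 also fell in each such fit and had a promoter entry, but its sequence is not printed. The printed sequences come from RefSeq on the rat build GRCr8, whereas the values were made on rn6, and stop at the base before the annotated start. Capitals mark GCGTG, the core of the element that AHR binds with its partner ARNT, or its reverse complement CACGC, and GGGCGG, the GC box, or its reverse complement CCGCCC. The annotated starts were 76 bases apart for Col4a1 and Col4a2, 412 for Col4a3 and Col4a4 and 1414 for Col4a5 and Col4a6. The first sequence is the whole stretch between the starts of Col4a1 and Col4a2 (chr16:84885521-84885596, strand +). The others are the 250 bases before the start of Col4a3 (chr9:91323740-91323989, strand +), Col4a4 (chr9:91323578-91323827, strand -), Col4a6 (chrX:109905945-109906194, strand -), Col5a3 (chr8:27625949-27626198, strand -) and Col18a1 (chr20:11473395-11473644, strand +).
Col4a1 to Col4a2: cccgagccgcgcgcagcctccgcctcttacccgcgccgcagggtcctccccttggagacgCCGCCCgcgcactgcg
Col4a3: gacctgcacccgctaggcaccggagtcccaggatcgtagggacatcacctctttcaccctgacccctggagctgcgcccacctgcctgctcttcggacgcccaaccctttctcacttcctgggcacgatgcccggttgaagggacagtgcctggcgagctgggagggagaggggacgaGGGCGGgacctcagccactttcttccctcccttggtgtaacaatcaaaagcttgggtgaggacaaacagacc
Col4a4: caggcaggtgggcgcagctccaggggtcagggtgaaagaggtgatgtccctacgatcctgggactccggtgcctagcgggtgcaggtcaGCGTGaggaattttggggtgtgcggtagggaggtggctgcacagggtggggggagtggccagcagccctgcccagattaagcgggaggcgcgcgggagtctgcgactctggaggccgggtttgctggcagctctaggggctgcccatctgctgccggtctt
Col4a6: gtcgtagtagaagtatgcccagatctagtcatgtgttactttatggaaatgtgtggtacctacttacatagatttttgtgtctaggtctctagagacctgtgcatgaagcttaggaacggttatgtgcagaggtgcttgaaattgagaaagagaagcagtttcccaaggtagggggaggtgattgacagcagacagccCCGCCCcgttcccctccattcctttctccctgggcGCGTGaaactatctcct
Col5a3: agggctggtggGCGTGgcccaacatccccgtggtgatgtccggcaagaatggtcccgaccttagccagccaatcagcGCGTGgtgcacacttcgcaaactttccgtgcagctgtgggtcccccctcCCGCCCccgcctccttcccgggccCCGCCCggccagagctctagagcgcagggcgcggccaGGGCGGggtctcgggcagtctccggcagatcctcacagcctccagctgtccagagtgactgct
Col18a1: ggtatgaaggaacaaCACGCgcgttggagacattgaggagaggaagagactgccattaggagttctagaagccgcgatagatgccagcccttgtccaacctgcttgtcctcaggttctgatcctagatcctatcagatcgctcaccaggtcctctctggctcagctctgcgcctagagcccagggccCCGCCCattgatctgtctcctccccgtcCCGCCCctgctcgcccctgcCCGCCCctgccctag

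Of the 41 chains, 34 had a promoter in the RefSeq table, which spans 250 bases before to 50 after the start. GCGTG stood on either strand of 15 of them (44.1%), and of 31.1% of 27457 promoters of the same length. It was found in 3 of the 6 chains that fell and had an entry, 2 of the 5 that rose and 10 of the other 23. The GC box was found in 18 of the 34 (52.9%) and in 34.9% of all. CCAAT (11 of 34, against 37.7% of all) and TATAAA (4 of 34, against 14.3%) were the other motifs searched. GCGTG and the GC box can share bases, and each was counted by itself. Such matches describe the letters of this window and were not tested for binding. Col5a3 held 2 copies of GCGTG, Col18a1, Col4a4 and Col4a6 held 1 each, and Col4a3 held none. Of the other chains that fell and had an entry, Col19a1 held 1 copy, and Col8a2, Col11a1 and Col6a6 held none. Of the others that rose, Col20a1 and Col6a4 held none.

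Among the fibrillar chains of types I and III, Col1a1 and Col3a1 fell in the Ahr-KO lungs and Col1a2 did not pass. Col1a1, the main chain of type I collagen, stood at 10512, 10281 and 7727 in WT and at 4073, 3474 and 3371 in Ahr-KO. All Ahr-KO values lay below all WT values, and the WT library of lowest value was number 2. The log2 difference was -1.38 ± 0.14 (2.60-fold lower, adjusted p = 0.0034). Col3a1, the single chain of type III collagen, which is laid down with type I in distensible tissue, stood at 36337, 32805 and 29754 in WT and at 22135, 18567 and 22253 in Ahr-KO. Again the groups did not overlap, with a smaller difference of -0.65 ± 0.13 (1.57-fold lower, adjusted p = 0.02). Col1a2, the partner chain of Col1a1 in type I collagen, stood at 665, 533 and 263 in WT and at 152, 38.0 and 375 in Ahr-KO, so the groups overlapped through Ahr-KO library 2. Its difference of -1.79 ± 0.74 did not pass (adjusted p = 0.16), and its value varied more within each group than that of Col1a1. The ratio of Col1a1 to Col1a2 ran from 8.99 to 91.4 over the 6 libraries. Why Col1a2 was read so far below its partner chain, and so unevenly, was not tested.

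The chains of type V collagen, which starts fibrils and limits their width, split. Col5a3, a minor type V chain, stood at 846, 848 and 484 in WT and at 157, 205 and 188 in Ahr-KO. Every Ahr-KO value lay below every WT value, with WT library 2 nearest to them, and the difference was -1.94 ± 0.23 (3.84-fold lower, adjusted p = 0.0053). Col5a2 stood at 7400.4, 7593 and 6586 against 6452, 6609 and 7582, with an interval of -0.30 to 0.17 around its log2 difference of -0.065 (adjusted p = 0.73). Col5a1 stood at 1704, 1962 and 1505 against 1567, 1322 and 1939.8, with an interval of -0.47 to 0.25 (adjusted p = 0.7). Both chains overlapped between the groups.

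Of the type XI chains, best known from cartilage fibrils, Col11a1 fell and Col11a2 did not pass. Col11a1 stood at 29.99, 20.5 and 25.2 in WT and at 3.22, 0 and 0 in Ahr-KO, which is 30, 25 and 18 reads against 4, 0 and 0 reads. It fell by 4.0 ± 0.62 on the log2 scale (adjusted p = 0.01), the largest difference among the 41 chains and one that rests on few reads. Col11a2 stood at 132, 204 and 69.9 against 218, 274 and 282; the groups did not overlap, and the difference of 1.05 ± 0.35 did not pass (adjusted p = 0.098) except without WT library 1 (0.04). Of 8 cartilage markers found in the table, 4 were tested and none passed in limma-trend or limma-voom, with 1 at an unadjusted p under 0.05. Their summed value was 27.1 to 69.9 in WT and 36.3 to 54.6 in Ahr-KO, and Matn1 was at 0 in all 6 libraries. Col2a1, the main cartilage collagen, was below the filter, at 0, 0.821 and 1.40 in WT and listed at 0 in the 3 Ahr-KO libraries.

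Of the other fibrillar chains, Col27a1 stood at 505, 563 and 424 in WT and at 171, 264 and 383 in Ahr-KO. All Ahr-KO values were lower, yet the difference of -0.93 ± 0.27 did not pass (adjusted p = 0.069). It passed with equal library totals (adjusted p = 0.048) and with limma-voom (0.043). Col24a1 ranged from 16.4 to 44.0 over both groups (adjusted p = 0.63).

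**Figure D2:**
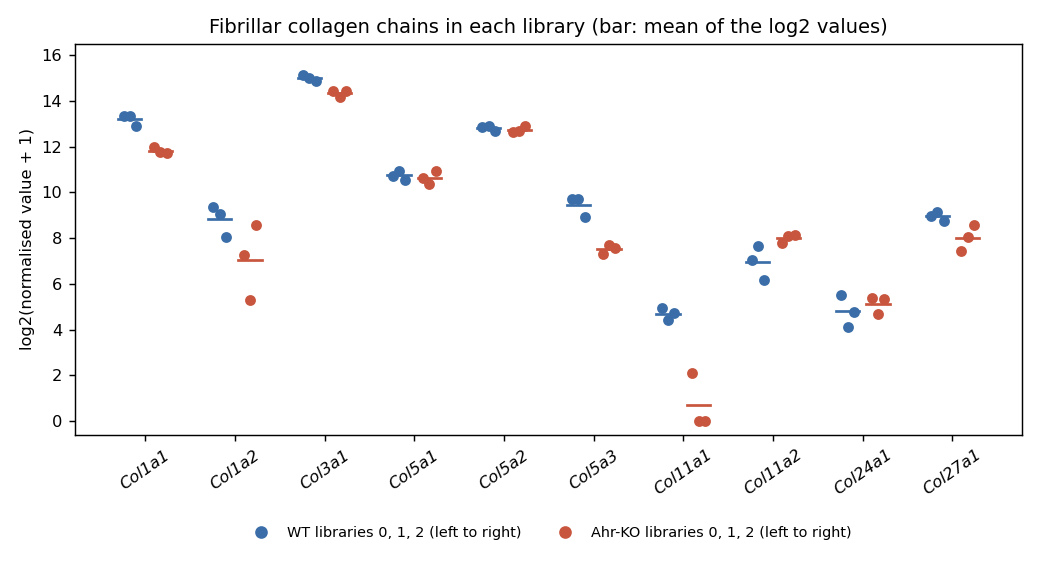
Log2(normalised value + 1) of the 10 tested fibrillar chains in each library, WT in blue and Ahr-KO in red, libraries 0, 1 and 2 from left to right and bars at group means. Col1a1, Col3a1, Col5a3 and Col11a1 separate with Ahr-KO below WT, Col5a1 and Col5a2 overlap, and Col11a1 reaches 0 in 2 Ahr-KO libraries.

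The fall of Col1a1 and Col5a3 passed in each of the 6 fits that left out 1 library (highest adjusted p = 0.025 and 0.034), as did that of Col11a1 (0.048). Col3a1 lost its call without library 0 or 1 of WT (adjusted p = 0.068 and 0.057) or library 1 or 2 of Ahr-KO (0.075 and 0.065), with a log2 difference of -0.72 to -0.57 over the 6 fits. Without Ahr-KO library 0, Col11a1 stood at -4.70, and without both libraries numbered 2 it did not pass (adjusted p = 0.071). With a pseudocount of 0.1 its difference was -6.28. Fibroblasts are the main source of fibrillar collagen. The counts of called cell markers here and below stand beside 10.8% of all tested genes called. Of 10 fibroblast markers, 1 fell (Pi16, a marker of adventitial fibroblasts, 2.41-fold, adjusted p = 0.02), none rose, and 9 had a negative difference (median log2 -0.64). Their summed value was 13714 to 17987 in WT and 9383 to 14755 in Ahr-KO. Pdgfra, a receptor of lung fibroblasts, was the 1 marker of the 10 with a positive difference (0.14 ± 0.25, adjusted p = 0.76). None of 6 smooth muscle markers passed in limma-trend or limma-voom, with 2 at an unadjusted p under 0.05 (summed value 22941 to 33157 in WT and 30556 to 49089 in Ahr-KO), and of 6 pericyte markers 1 fell, Rgs5 (2.41-fold, adjusted p = 0.016). The part of these cells in the result was not tested.

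Ratios between chains of 1 library do not depend on how that library was scaled. The ratio of Col1a1 to Col5a2 was 1.42, 1.35 and 1.17 in WT and 0.631, 0.526 and 0.445 in Ahr-KO. For Col3a1 to Col5a2 it was 4.91, 4.32 and 4.52 against 3.43, 2.81 and 2.94. Col1a1 was also lower relative to Col3a1, at 0.289, 0.313 and 0.260 against 0.184, 0.187 and 0.151. None of these 3 ratios overlapped between the groups, so Col1a1 and Col3a1 were lower relative to Col5a2 within a library, and Col1a1 lower relative to Col3a1. The ratio of Col5a1 to Col5a2 was 0.230, 0.258 and 0.229 against 0.243, 0.200 and 0.256 and overlapped. The ratios were not tested, since an exact permutation test of 3 against 3 libraries cannot give a 2-sided p below 0.1, and those with Col5a2 or between Col1a1 and Col3a1 were chosen after the values were seen.

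**Figure D3:**
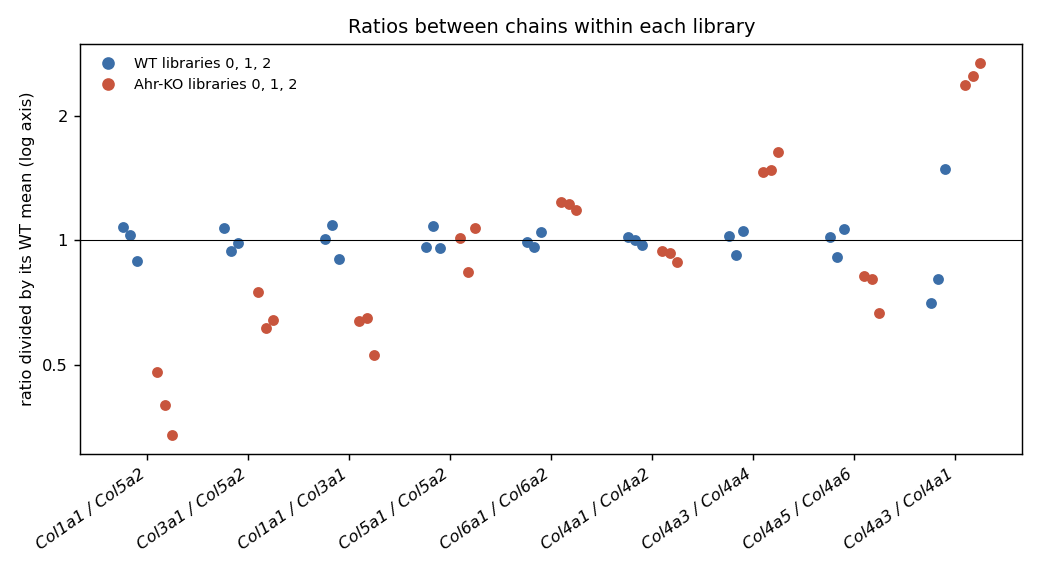
Ratio of 2 chains in each library divided by the WT mean of that ratio, on a log axis, WT in blue and Ahr-KO in red. The ratios of Col1a1 and Col3a1 to Col5a2 lie below 1 in every Ahr-KO library, those of Col6a1 to Col6a2, Col4a3 to Col4a4 and Col4a3 to Col4a1 above 1, and Col5a1 to Col5a2 overlaps.

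The FACIT chains moved in both directions. Of 9 tested, 2 fell and 1 rose. Col14a1, which binds the surface of type I fibrils, stood at 851, 790.0 and 985 in WT and at 404, 255 and 286 in Ahr-KO. The highest Ahr-KO value, of library 0, lay below the lowest WT value, and the difference was -1.49 ± 0.18 (2.82-fold lower, adjusted p = 0.0054). Col19a1, a rare chain of basement membrane zones, stood at 91.0, 58.3 and 58.8 against 23.4, 28.9 and 25.9, or 91, 71 and 42 against 29, 35 and 19 reads, and was 2.55-fold lower (log2 -1.35 ± 0.26, adjusted p = 0.02). Col20a1 was higher in each Ahr-KO library, at 289, 329.7 and 379 against 179.9, 214 and 192 in WT (1.69-fold, log2 0.76 ± 0.15, adjusted p = 0.02).

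Col12a1, a FACIT chain of tissues under load and a relative of Col14a1, lay above WT in each Ahr-KO library. It stood at 1920.3, 2981 and 3519.5 in WT and at 3723, 4437 and 5523 in Ahr-KO, and the difference of 0.73 ± 0.23 did not pass (adjusted p = 0.086). It passed without WT library 2 (adjusted p = 0.042). Col16a1 (4625 ± 844 in WT and 5545 ± 1159 in Ahr-KO) and Col9a2 (157 ± 52.2 in WT and 203 ± 70.4 in Ahr-KO) overlapped between the groups (adjusted p = 0.39 and 0.51). Col9a1, Col9a3 and Col22a1 were below 30 in each library and did not pass (adjusted p = 0.43, 0.38 and 0.77). Col14a1 kept its call in each fit that left out 1 library (highest adjusted p = 0.035) and missed it narrowly without both libraries numbered 2 (0.0501). Col19a1 lost its call after quantile normalisation (adjusted p = 0.054) and without WT library 0 (0.065) or library 1 or 2 of Ahr-KO (0.057 and 0.075). Col20a1 lost it without WT library 0 (0.068) or library 1 or 2 of Ahr-KO (0.074 and 0.085).

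The 3 network chains gave 1 fall. Col8a2, a type VIII chain made by endothelium and smooth muscle, stood at 476, 359.7 and 299 in WT and at 163, 155 and 161 in Ahr-KO. The Ahr-KO values lay close together and all below the WT values (2.32-fold lower, log2 -1.21 ± 0.18, adjusted p = 0.0096), and the call stood whichever single library was removed (highest adjusted p = 0.048). Its partner chain Col8a1 stood at 149, 103 and 118 against 154, 129 and 85.9 and overlapped (interval of the log2 difference -0.62 to 0.57, adjusted p = 0.97). Col10a1, a chain of growth plate cartilage, was below 10 in each library (adjusted p = 0.94).

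The type IV chains of the basement membrane all had positive differences, of unequal size. Each of the 3 gene pairs encodes chains that assemble together: Col4a1 with Col4a2 in the ubiquitous network, Col4a3 and Col4a4 with Col4a5 in the network of the alveolar and glomerular barrier, and Col4a5 with Col4a6 in a network around smooth muscle and epithelia. Col4a3 stood at 1098, 1477 and 2021 in WT and at 4676, 4013 and 5032 in Ahr-KO. The lowest Ahr-KO value, of library 1, lay above the highest WT value, of library 2, and the difference was 1.62 ± 0.21 (3.06-fold higher, adjusted p = 0.006). Col4a4, which starts on the other strand of the stretch printed above, stood at 249, 372 and 445 against 739.9, 631 and 716 and rose 2.01-fold (log2 1.00 ± 0.21, adjusted p = 0.023). In both genes WT library 0 was the lowest and WT library 2 the highest of its group.

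Col4a5, the X-linked chain that joins both of the less common networks, stood at 3193, 3820.4 and 4686 in WT and at 5338, 5100.0 and 5392 in Ahr-KO. The groups did not overlap, and the difference of 0.45 ± 0.14 did not pass (adjusted p = 0.073). It passed without WT library 2 (adjusted p = 0.016). Col4a6, its head-to-head neighbour, stood at 319, 426 and 448 against 664, 643 and 823 and rose 1.79-fold (log2 0.84 ± 0.16, adjusted p = 0.019).

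The ubiquitous chains overlapped between the groups. Col4a1 stood at 20487, 24136 and 17829.9 in WT and at 25907, 21154 and 24602 in Ahr-KO, a difference of 0.20 ± 0.14 with an interval of -0.13 to 0.53 (adjusted p = 0.4). Col4a2 stood at 12974, 15545 and 11844 against 17748, 14716 and 17977, a difference of 0.32 ± 0.14 with an interval of 0.012 to 0.64 (adjusted p = 0.16). The interval of Col4a3 was 1.14 to 2.09, and the difference between these chains in response was not tested.

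**Figure D4:**
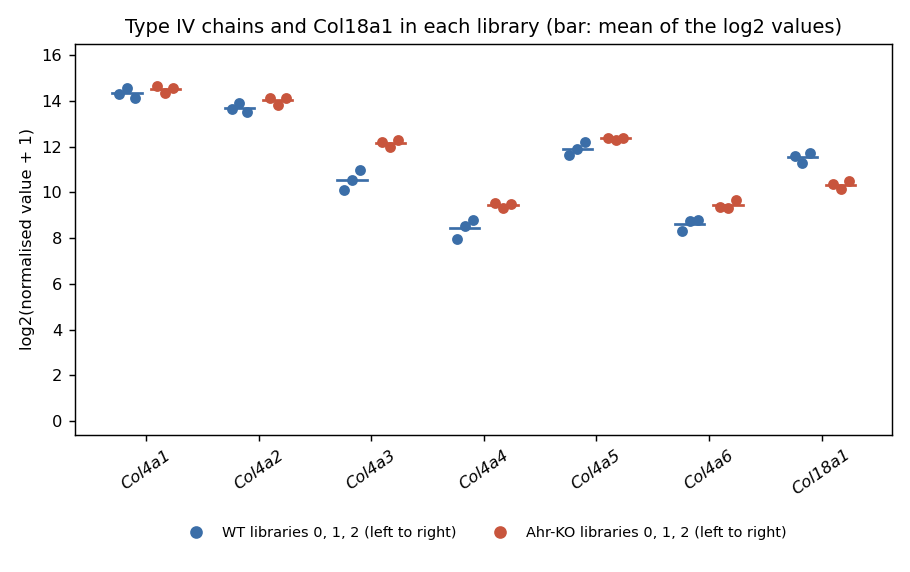
Log2(normalised value + 1) of the 6 type IV chains and Col18a1 in each library, WT in blue and Ahr-KO in red, libraries 0, 1 and 2 from left to right and bars at group means. Col4a3 to Col4a6 separate with Ahr-KO above WT, Col4a1 and Col4a2 overlap, and Col18a1 separates the other way.

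Within a library, the ratio of Col4a3 to Col4a1 was 0.0536, 0.0612 and 0.113 in WT and 0.180, 0.190 and 0.205 in Ahr-KO, without overlap. Members of a pair did not keep a fixed ratio. Col4a3 to Col4a4 stood at 4.41, 3.97 and 4.54 in WT and at 6.32, 6.36 and 7.03 in Ahr-KO. Col4a5 to Col4a6 stood at 10.01, 8.96 and 10.5 against 8.04, 7.93 and 6.56, and Col4a1 to Col4a2 at 1.58, 1.55 and 1.51 against 1.46, 1.44 and 1.37. Each of the 3 pair ratios separated the groups, and none was tested. The ratios of Col4a3 to Col4a1 and of Col4a5 to Col4a6 were chosen after the values were seen.

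Col4a3 kept its call in each fit that left out 1 library (highest adjusted p = 0.04). Col4a4 lost it in limma without the trend (adjusted p = 0.061) and without WT library 1 (0.051) or Ahr-KO library 0 (0.056), 1 (0.06) or 2 (0.096). Col4a6 lost it in limma without the trend (0.052) and without Ahr-KO library 1 (0.053) or 2 (0.081). Without both libraries numbered 2, Col4a3 was the 1 chain that still rose, with Col4a4 at 0.057 and Col4a6 at 0.06. Markers of alveolar type 1 cells, the flat epithelium that lies on the alveolar basement membrane, also had positive differences. Of 6 such markers 4 rose (Ager, Hopx, Rtkn2 and Clic5) and none fell (median log2 difference 0.76), and their summed value was 97425 to 119473 in WT and 162358 to 188159.5 in Ahr-KO. Hopx rose 2.10-fold (adjusted p = 0.0071) and Ager 1.61-fold (0.034). Of 7 endothelial markers 2 rose (Tek and Pecam1) and 1 fell (Emcn), with a summed value of 64980.1 to 66198 in WT and 75538 to 84589 in Ahr-KO. The part of these cells in the result was not tested.

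Of the other collagens of the basement membrane zone, Col18a1 fell, and Col15a1 and the entry that holds Col7a1 did not pass. Col18a1, whose end fragment is endostatin, an inhibitor of vessel growth, stood at 3133, 2528 and 3408 in WT and at 1325, 1135 and 1432 in Ahr-KO. It was lower in each Ahr-KO library (2.32-fold, log2 -1.22 ± 0.14, adjusted p = 0.0043) and kept its call in each fit that left out 1 library (highest adjusted p = 0.024). The ratio of Col18a1 to Col4a1, chosen after the values were seen, was 0.153, 0.105 and 0.191 in WT and 0.0511, 0.0536 and 0.0582 in Ahr-KO. Col15a1, the relative of Col18a1, stood at 24.0, 52.6 and 11.2 against 9.67, 18.2 and 34.1 and overlapped (adjusted p = 0.72). Col7a1, which forms the anchoring fibrils under epithelia, shares an entry of the table with the microRNA gene Mir711 and so falls outside the symbol rule. That joint entry stood at 766, 712 and 263 in WT and at 943, 1155 and 1786 in Ahr-KO, higher in each Ahr-KO library but not past the threshold (log2 1.25 ± 0.41, adjusted p = 0.092).

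Among the beaded collagens, Col6a1, Col6a2 and Col6a3, the chains of the common type VI microfibril, did not pass, while Col6a4 rose and Col6a6 fell. Col6a1 stood at 9398, 9266 and 7260.1 in WT and at 8109, 7835 and 10302 in Ahr-KO, with an interval of -0.32 to 0.35 around a difference near 0. Col6a2 stood at 10235, 10429.8 and 7519 against 7087, 6907 and 9439 (interval -0.65 to 0.12), and Col6a3 at 8398, 7794 and 6100.4 against 7739, 6985 and 9231 (interval -0.24 to 0.45). All 3 overlapped between the groups and did not pass (adjusted p = 0.96, 0.35 and 0.69). Col6a2 was lower without both libraries numbered 2 (log2 -0.56, adjusted p = 0.036). The ratio of Col6a1 to Col6a2 was 0.918, 0.888 and 0.966 in WT and 1.14, 1.13 and 1.09 in Ahr-KO, so it separated the groups although neither chain did.

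Col6a4, Col6a5 and Col6a6 are neighbours in the genome and can take the place of Col6a3. Col6a4 stood at 139, 284 and 200.04 in WT and at 562, 726 and 776 in Ahr-KO, and rose 3.41-fold (log2 1.77 ± 0.26, adjusted p = 0.0086). Col6a6 stood at 1622, 1688 and 1279 against 828, 845 and 1093 and was 1.66-fold lower (log2 -0.73 ± 0.15, adjusted p = 0.023). Between them in the genome, Col6a5 stood at 4966, 3769.5 and 3212 against 4146, 2955 and 4708 and overlapped (interval -0.50 to 0.46, adjusted p = 0.96). The rise of Col6a4 passed in each fit that left out 1 library (highest adjusted p = 0.049) but not without both libraries numbered 2 (0.069). Col6a6 lost its call in limma without the trend (0.065) and without library 0 or 1 of WT (0.072 and 0.069) or of Ahr-KO (0.056 and 0.083). Col28a1, a relative found around peripheral nerve, was below 8 in each library (adjusted p = 0.76).

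None of the 3 tested transmembrane chains passed in limma-trend, with 1 at an unadjusted p under 0.05 and 1 called by limma-voom. Col17a1, a hemidesmosome protein of basal epithelial cells, stood at 399.9, 379 and 407 in WT and at 295, 129 and 198 in Ahr-KO. All Ahr-KO values were lower and the difference of -1.01 ± 0.27 missed the threshold (adjusted p = 0.053). It passed with equal library totals (0.037), with that limma-voom fit (0.048) and without Ahr-KO library 0 (0.015). Col13a1, a cell surface collagen at adhesion sites, stood at 2964, 2371 and 1956 against 1805, 1941 and 2109 and overlapped (log2 -0.30 ± 0.15, adjusted p = 0.24). Col23a1 was between 17.7 and 44.3 in each library (adjusted p = 0.95). Col25a1 was below the filter, at 1.00, 0.821 and 4.20 in WT, with 1 library of at least 1, and listed at 0 in the 3 Ahr-KO libraries. Just inside the filter were Col9a1 and Col11a1, each with a value of at least 1 in 4 libraries. For Col11a1 these were the 3 WT libraries and Ahr-KO library 0, so it met the filter through the group where it was high. Col21a1 is not analysed here. Col26a1, of no class above, was below 9 in each library (adjusted p = 0.57).

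Adding the values of a class shows how the mix of collagen reads shifted, without correction for transcript length and including the 2 untested chains. The 43 chains took 0.822, 0.832 and 0.692% of the library total in WT and 0.690, 0.622 and 0.744% in Ahr-KO, with overlap. Fibrillar chains made up 39.8, 36.7 and 37.6% of the collagen total in WT and 26.6, 26.2 and 25.3% in Ahr-KO. Within that class, Col1a1 and Col3a1 together made up 30.3 ± 1.61% of the collagen total in WT and 18.8 ± 1.06% in Ahr-KO. Most of the fall in the fibrillar share, from a mean of 38.0 to 26.0%, thus lay in Col1a1 and Col3a1. Type IV chains made up 26.2, 30.6 and 29.9% against 41.9, 39.4 and 37.9%. The fibrillar share was lower, and the type IV share higher, in each Ahr-KO library than in any WT library. Col4a1 and Col4a2 together went from 24.4 ± 1.91 to 31.1 ± 1.86% of the collagen total, although neither chain passed by itself. Col4a3 to Col4a6 went from 4.50 ± 1.44 to 8.62 ± 0.271%. A share of a sum rises when another part falls, so these shares do not measure each class by itself. Beaded chains were at 23.8, 22.2 and 20.5% against 21.6, 22.4 and 24.7%.

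**Figure D5:**
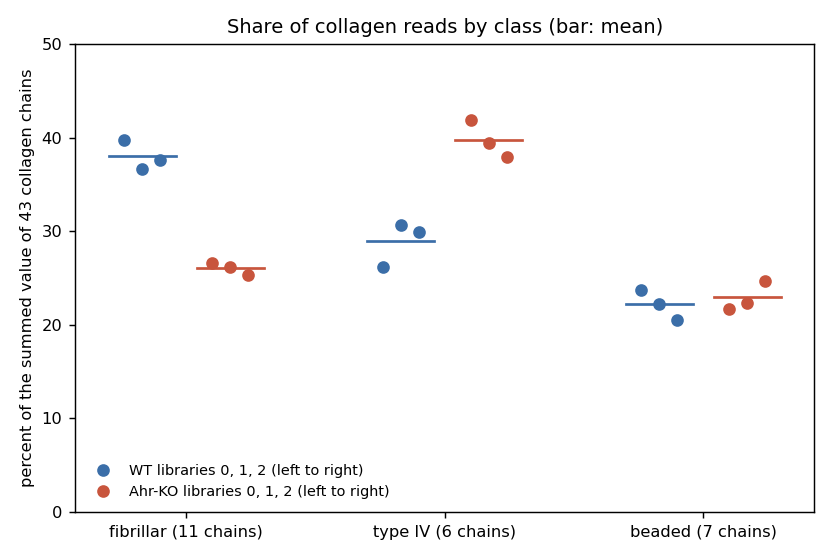
Percent of the summed value of 43 collagen chains taken by fibrillar, type IV and beaded chains in each library, WT in blue and Ahr-KO in red, with bars at group means. Fibrillar shares are 36.7 to 39.8% in WT and 25.3 to 26.6% in Ahr-KO, type IV shares are 26.2 to 30.6% and 37.9 to 41.9%, and beaded shares overlap.

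Genes that build, crosslink, bind or break down collagen were listed apart from the chains. Of 71 tested in 5 lists, 14 fell and 10 rose (33.8%, against 10.8% of all genes). Among 29 enzymes and helpers of collagen maturation, 5 fell and 4 rose (median log2 difference -0.052). Loxl1, a lysyl oxidase that crosslinks elastin and collagen, went from 3062 ± 1160.1 to 785 ± 139.8 (3.72-fold lower, adjusted p = 0.011). Adamts14, which cuts the amino-terminal propeptide of fibrillar procollagen, fell 2.43-fold (0.013), and Pcolce, the enhancer of carboxy-terminal propeptide removal, fell 1.74-fold (0.0071). Loxl4, a relative of Loxl1, rose 1.88-fold (0.01). P3h2, a prolyl hydroxylase that acts on type IV collagen and is named after its values were seen, rose 1.76-fold (adjusted p = 0.015), a call lost without Ahr-KO library 1 (0.051) or 2 (0.053).

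In the list of TGF-beta ligands and fibrosis readouts, 6 of 11 fell and none rose (median -0.93). Thbs2, a matricellular protein of collagen fibrils, went from 501 ± 21.0 to 65.5 ± 12.9 (7.63-fold lower, adjusted p = 0.00051). The ligand genes Tgfb1 and Tgfb3 fell 2.02-fold (0.0051) and 1.91-fold (0.0078). Among 12 partners of type IV collagen in basement membranes, 5 rose and 2 fell (median 0.28). Lama3 and Lama5, laminin chains of epithelial basement membranes, rose 2.15-fold (0.0042) and 2.13-fold (0.0079), and Hspg2, the proteoglycan perlecan, rose 1.88-fold (0.0054). Lama4, a laminin chain of vessels and muscle, fell 1.45-fold (0.013), a call lost without Ahr-KO library 1 (0.057) or 2 (0.056). Lama5 missed the threshold without both libraries numbered 2 (0.051). None of the 10 collagen receptors passed in limma-trend or limma-voom, with 2 at an unadjusted p under 0.05 (median 0.033). Among 9 genes of collagen breakdown, the inhibitor gene Timp1 fell 1.58-fold (0.015) and Timp3 rose 2.63-fold (0.02). No protease of the list passed, although 6 of the 9 genes had an unadjusted p under 0.05. Mmp2, Mmp9 and Mmp14 were lower in each Ahr-KO library (log2 -0.55, -0.92 and -0.36, adjusted p = 0.059, 0.06 and 0.093). Ctsk was lower with overlap (-0.74, adjusted p = 0.17), and Mmp8 and Mmp13 had positive differences (0.46 and 0.35) that did not pass. Timp1 lost its call without Ahr-KO library 1 (0.062) or 2 (0.06), and Timp3 in limma without the trend (0.063) and without WT library 1 (0.057) or library 1 or 2 of Ahr-KO (0.057 and 0.074).

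Other cell markers gave the following background. Of 6 leukocyte markers 5 fell (Ptprc, Cd3e, Ms4a1, Lck and Nkg7), with a summed value of 6783 to 8670.2 in WT and 3112 to 5455 in Ahr-KO. Of 6 mesothelial markers 1 rose (Krt19, which other epithelia also express), and the other 5 had negative differences that did not pass (median of the 6 -0.39). Their summed value was 6654 to 8918 in WT and 11145 to 13282 in Ahr-KO. None of 6 Schwann cell markers and none of 7 striated muscle markers passed in limma-trend or limma-voom, with 2 and 0 at an unadjusted p under 0.05. No marker of any list but the cartilage list was at 0 throughout. Of the markers named above, calls were lost without single libraries for Pi16 (WT 0, Ahr-KO 1 or 2, highest adjusted p = 0.068), Rgs5 (WT 1, Ahr-KO 1 or 2, 0.07), Ager (WT 0 or 2, Ahr-KO 1 or 2, 0.12), Rtkn2 (WT 0 or 1, Ahr-KO 1 or 2, 0.094), Clic5 (Ahr-KO 2, 0.0504), Tek (WT 0, Ahr-KO 1, 0.059), Pecam1 (each but WT 1, 0.14) and Emcn (each but WT 2, 0.14). The leukocyte marker Ptprc also lost its call, in each such fit but that without Ahr-KO 0 (highest adjusted p = 0.16). Cd3e lost it without WT 0 or 1 or Ahr-KO 1 or 2 (0.074). Hopx and Krt19 passed in all 6 such fits (highest adjusted p = 0.038 and 0.034). So did Lck, Ms4a1 and Nkg7 (0.034, 0.045 and 0.043). The part of these cells in the collagen values was not tested.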

How the data were processed

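The authors deposited 1 table of normalised signal per gene symbol, with 1 column for each of 6 libraries. Build rn6 and FastQC are named in the submitters' processing notes, and the sources used here do not give the aligner, counter, annotation, strand setting or normalisation. In each library 97.4% to 97.9% of the values above 0 were whole multiples, to within 0.05, of a step, taken as the worth of 1 read, and the rest were fractions, so no count test was run and counting error covers only part of the spread. Columns number libraries from 0 and titles from 1, so each column was assigned only to its group. The labels do not say that samples came from separate animals, and p-values then measure only the spread between these samples. No pair of libraries differed by as little as sampling noise (chi-square per gene at least 14.5). There were 0 unused columns.

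Values were transformed to log2(value + 1) and fitted with limma 3.58.1 in R 4.3.3 (genotype only, mean-variance trend, 2-sided, Benjamini-Hochberg over 15386 genes, threshold 0.05). All chains are accounted for by name. From each pathway list up to 4 members past the threshold with the lowest p are named, except 1 item that is not reported here. Members, lists and tests were chosen with earlier results of these data known. The list symbols Plod3, Pcolce2 and Cnmd had no entry of their own. Alternatives were a pseudocount of 0.1, other filters (none, or at least 10), quantile normalisation, equal totals, limma without trend or robust, limma-voom on estimated reads, a block, leaving out libraries and an adjusted p under 0.10. The fit was also run on simulated data in which every gene had the same spread beyond counting error. That run does not measure the error rate of the fit in these libraries.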

Additional observations from a re-analysis of the deposited data

How the results depend on the processing

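Over the 16 alternative fits, the direction of the 14 called chains never turned, and Col1a1, Col5a3, Col8a2, Col18a1 and Col4a3 passed in each. Chains lower in Ahr-KO numbered 9, and 6 to 9 when 1 library was left out. Without both libraries numbered 2, Col3a1 (adjusted p = 0.052), Col11a1 (0.071), Col14a1 (0.0501) and Col19a1 (0.075) lost that call and Col6a2 (0.036) gained it. Col20a1, a chain that rose, also lost its call in that fit (0.087). Chains higher in Ahr-KO numbered 5, and 3 in limma without the trend, 1 without both libraries numbered 2, 8 at an adjusted p under 0.10 and 2 to 7 when 1 library was left out; the 2 stood without Ahr-KO library 1 and without Ahr-KO library 2. Pathway genes lower numbered 14, and 9 in limma without the trend, 9 without both libraries numbered 2 and 7 to 16 when 1 library was left out. Those higher numbered 10, and 6 in limma without the trend, 6 with the replicate block, 5 without both libraries numbered 2 and 4 to 10 when 1 library was left out. With the replicate block, 7 chains were lower and 6 higher, and Col19a1 (0.056) and Col6a6 (0.068) lost and Col12a1 (0.028) gained the call. Same-numbered libraries did not deviate together (correlations -0.10, 0.069 and -0.074), so the numbers are not taken to pair them. The number of all genes called, 1655, was 899 with the replicate block, 952 in limma without the trend, 553 without both libraries numbered 2 and 407 to 1834 when 1 library was left out. Equal library totals moved the median of all genes to a log2 of -0.082 and gave 448 higher and 1314 lower genes against 692 and 963, and 5 higher and 11 lower chains.

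Chains near 0 changed sign without passing. The log2 difference turned after quantile normalisation for Col22a1 (0.064), Col6a1 (-0.12), Col6a3 (-0.026) and Col8a1 (0.16). With equal totals it turned for Col10a1 (-0.0054), Col23a1 (-0.035) and Col6a1 (-0.074), and with limma-voom for Col8a1 (0.036). Without both libraries numbered 2 it turned for Col10a1 (-0.28), Col16a1 (-0.041), Col6a1 (-0.23), Col6a3 (-0.14) and Col8a1 (0.19). With 1 library left out, the ranges crossed 0 for Col10a1 (-0.30 to 0.32), Col15a1 (-0.92 to 0.14), Col22a1 (-0.62 to 0.14), Col23a1 (-0.26 to 0.38), Col24a1 (-0.0054 to 0.68), Col28a1 (-0.94 to 0.059), Col5a1 (-0.25 to 0.025), Col6a1 (-0.11 to 0.091), Col6a3 (-0.029 to 0.20), Col6a5 (-0.16 to 0.17) and Col8a1 (-0.21 to 0.21). The cause was not tested. The planned edgeR and DESeq2 fits were not run, since the values were not whole reads throughout. The 4 tested chains whose values were all under 10 rest on a few reads, and the smallest difference detectable there was not measured.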
